A study of Homo sapiens with 2 samples.

Results

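The subject is a set of 10 genes for plasma membrane amino acid transport in the established gastric adenocarcinoma cell line AGS, of human origin, with and without ectopic GGT7. The set holds SLC7A5, SLC7A11, SLC7A6 and their shared heavy chain SLC3A2, the cationic amino acid transporter SLC7A1, the neutral amino acid transporters SLC1A4, SLC1A5, SLC38A1 and SLC38A2, and the uniporter SLC43A1. Rows were taken by gene name, and all 10 were found among the 23321 genes of the deposited table. The GGT7 group was AGS cells stably transfected with a GGT7 plasmid. GGT7 belongs to the gamma-glutamyltransferases, enzymes that act on glutathione and related peptides. The control group was AGS cells stably transfected with a negative control plasmid, with a genotype given as WT. Both were sampled at 2 weeks and grown in serum-supplemented Dulbecco's medium. The labels do not say whether either line was a clone or a pool, and do not name the promoter of the plasmid. Each group held 1 library of total RNA, so no difference below has a replicate check, no test was run and no p-value is given.

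Amino acids enter cells through carriers of the solute carrier (SLC) families. SLC7A5 (LAT1), SLC7A11 (xCT) and SLC7A6 (y+LAT2) are light chains that carry the substrate, and each is joined by a disulfide bond to the glycoprotein SLC3A2 (CD98, or 4F2hc), which brings it to the plasma membrane. LAT1 takes up leucine and other large neutral amino acids in exchange for glutamine, and xCT takes up cystine in exchange for glutamate, which feeds the synthesis of glutathione. SLC1A5 (ASCT2), SLC38A1 (SNAT1) and SLC38A2 (SNAT2) bring in glutamine and small neutral amino acids. Several of these genes are known targets of ATF4, a transcription factor induced when amino acids run short, and many tumours express LAT1, ASCT2 and xCT at a high level.

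The sequences around the start sites are shown as a description, and their part in the differences between the libraries was not tested. RefSeq start windows on GRCh38.p14 (250 bases before to 50 bases after a start) matched 9 of the 10 members by symbol, with 16 windows in all; SLC7A11 had no entry. The C/EBP-ATF element, the kind of site bound by ATF4 dimers, was searched as TGATGNAA on both strands. It was found in 5 of the 16 windows, which belong to 5 members, and in 3.62% of all 35116 windows. The matches are given 5′ to 3′ on the strand of the gene, with the match in capitals.
SLC1A4: cggctcccgtTTGCATCAtctccagccg
SLC1A5: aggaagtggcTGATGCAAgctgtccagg
SLC3A2: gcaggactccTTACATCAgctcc
SLC38A1: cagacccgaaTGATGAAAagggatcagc
SLC7A1: ggcgcactgcTGATGAAAcctggcgccg
The first stretch lies at chr2:64989382-64989409 (plus strand), and the match spans positions -7 to 1 of the window, counted from the start site. The SLC1A5 stretch, at chr19:46784894-46784921 (minus strand), holds the match at -97 to -90. The SLC3A2 stretch, at chr11:62881726-62881748 (plus strand), holds it at 38 to 45. The SLC38A1 stretch is at chr12:46266503-46266530 (minus strand), with the match at -4 to 4. The SLC7A1 stretch is at chr13:29595664-29595691 (minus strand), with the match at 8 to 15. SLC1A4, SLC1A5, SLC3A2 and SLC38A1 have more than 1 RefSeq start, each held the match in 1 of its windows, and the counts do not tell which start was used.

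SLC7A5, the member with the largest difference, had no C/EBP-ATF match in its window. The 250 bases before its start, at chr16:87869508-87869757 (GRCh38.p14, minus strand), are shown with an E-box (CACGTG, a site type bound by MYC and related factors) in capitals.
SLC7A5: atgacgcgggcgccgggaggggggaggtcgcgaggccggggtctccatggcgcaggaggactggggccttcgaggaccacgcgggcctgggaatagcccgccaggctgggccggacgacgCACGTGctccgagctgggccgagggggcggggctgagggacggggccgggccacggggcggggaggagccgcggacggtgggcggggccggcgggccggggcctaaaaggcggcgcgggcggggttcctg
The E-box was found in 3 of the 16 windows, those of SLC7A5, SLC1A5 and SLC43A1, and in 7.26% of all windows. The core of the antioxidant response element (TGACNNNGC, both strands), the kind of site bound by NRF2, was found in 5 of the 16 windows and in 13.3% of all windows. These windows belong to SLC7A5, SLC7A6, SLC3A2, SLC7A1 and SLC1A5. SLC7A5 and SLC7A6 differed in opposite directions, and the part of this site in either difference was not tested. The matches nearest to a start are shown.
SLC3A2: cgagggtgggTGACTCAGCgtcctccttc
SLC7A5: gcggggttccTGACGCAGCtgcgggcggc
SLC7A6: cggcggcgggTGACGTGGCggggcggggc
The SLC3A2 stretch is at chr11:62881652-62881680 (plus strand), with the match at -37 to -29. The SLC7A5 stretch is at chr16:87869491-87869519 (minus strand), with the match at -2 to 7. The SLC7A6 stretch is at chr16:68264487-68264515 (plus strand), with the match at -29 to -21, and a further match in the same window lies at -197 to -189. The match of SLC7A1 lies at -85 to -77 and that of SLC1A5 at -111 to -103. The SLC3A2 match lies in the same window as its C/EBP-ATF match. The windows of the members had a median GC content of 63.7%, against 58.7% over all windows, and the matches are descriptions of letters, not of binding.

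The GGT7 library held 10289206 counts and the control library 13482913. GGT7 itself had 470 counts in the GGT7 library and 90 in the control library. Of 6 epithelial markers, 5 were in the table and 4 were measured, with KRT8 at 45.4 and KRT18 at 117.5 FPKM in the GGT7 library, against 69.96 and 111.01 FPKM in the control library. CLDN7 was at 4.91 FPKM in the GGT7 library and 3.34 FPKM in the control library, and EPCAM was at 1.57 and 2.29 FPKM. CDH1, which encodes E-cadherin, was at 0.779 and 0.482 FPKM, under the limit of 1 FPKM in both libraries, and KRT19 has no row in the table analysed. The epithelial markers thus did not differ in 1 direction. Of the fibroblast, immune and endothelial markers, 10 of 12 were in the table, none was at a count of 0, and 4 reached 1 FPKM in either library. Their summed levels in the GGT7 and control libraries were 5.96 and 7.77 FPKM for fibroblasts, 6.51 and 1.36 FPKM for immune cells, and 2.04 and 2.25 FPKM for endothelium. CD68, a gene of macrophages and lysosomes, accounted for most of the immune sum, with 6.08 FPKM in the GGT7 library and 1.11 FPKM in the control library, while PTPRC, which marks all leukocytes, was at 0.0509 and 0.0389 FPKM. The part of this difference in the results below was not tested.

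Of the 10 members, 9 were higher in the GGT7 library and 1, SLC7A6, was lower. Differences are given as the log2 of (FPKM + 1) in the GGT7 library minus that in the control library. FPKM relates the fragments of a gene to its length and to the library total, and the added 1 understates the difference of genes with a low level. On this scale 2 members, SLC7A5 and SLC7A11, were 2-fold or more higher, beside 0.858% of the 14215 measured genes, those that reached 1 FPKM in either library. None was 2-fold or more lower, beside 1.16%. SLC43A1, SLC1A5 and SLC3A2 were also past 1.5-fold, which makes 5 members, beside 3.90% of all measured genes. On this scale no member was past 1.5-fold in the other direction, beside 4.97%. With the added 1, SLC1A4 and SLC7A6 stayed under the 1.5-fold rule, although their FPKM ratios were 1.55-fold higher and 1.55-fold lower. The exact 95% counting interval of the FPKM ratio lay above 1 for 9 members, beside 19.6%, and below 1 for SLC7A6, beside 25.4%. The median log2 difference of the members was 0.59, and that of all measured genes -0.03. The list was chosen by name with the FPKM differences of these same libraries known, so these counts describe the list and support nothing further. In bulk RNA a change in the share of expressing cells and a change in the RNA per cell cannot be told apart.

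**Figure D1:**
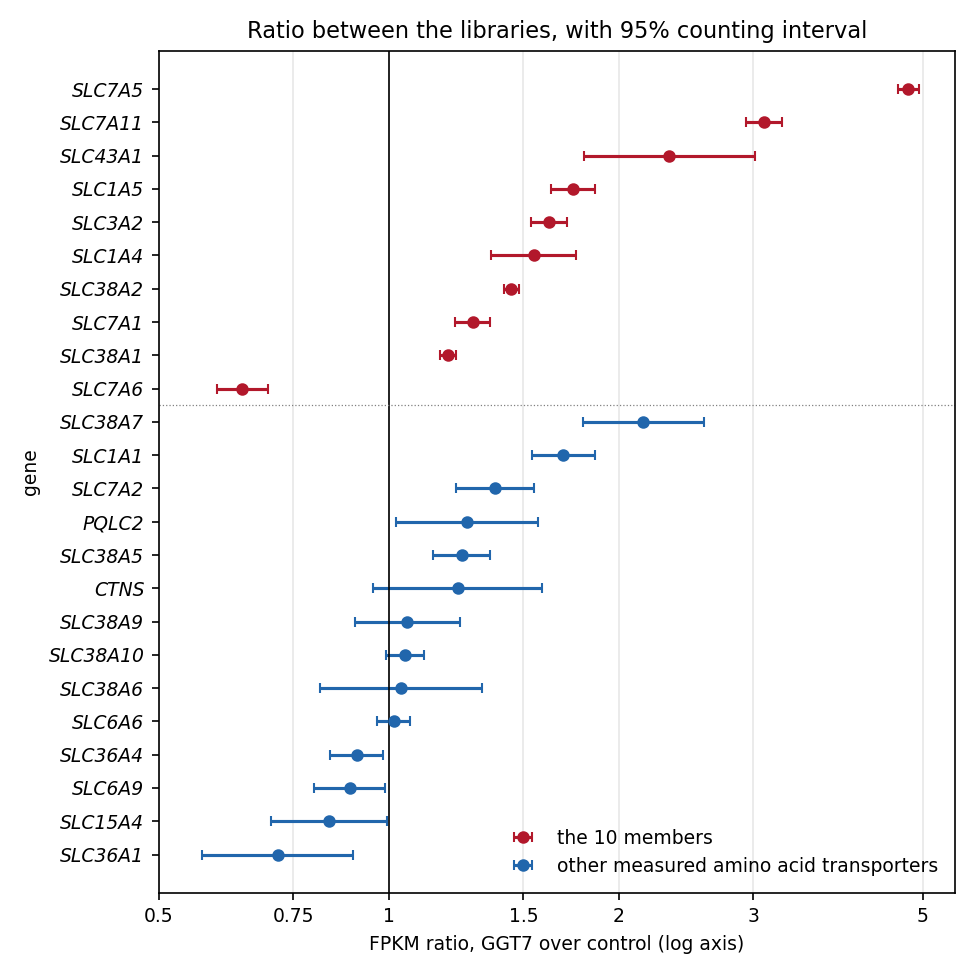
FPKM ratio of the GGT7 library over the control library (log axis) for the 10 members (upper block, red) and the 14 other measured amino acid transporter genes (lower block, blue), with exact 95% counting intervals. SLC7A5 lies at 4.79 and SLC7A11 at 3.10, and SLC7A6 is the member below 1.

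SLC7A5 (ENSG00000103257, GRCh38 chromosome 16, 87830023 to 87869488, minus strand) was read with 17590 counts in the GGT7 library and 4816 in the control library. Its deposited level was 329.4 FPKM in the GGT7 library and 68.8 FPKM in the control library, 4.79-fold higher with an exact 95% interval of 4.64 to 4.94. The intervals here come from the counts of the 2 libraries and cover counting error only. The gene was the highest of the 178 measured SLC genes by log2 difference (2.24) and at rank 14 of all 14215 measured genes. It took 0.171% of all counts in the GGT7 library (Wilson 95% interval 0.168% to 0.173%) and 0.0357% in the control library (0.0347% to 0.0367%).

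Several loci carry copies of SLC7A5 sequence, so reads could have been split between them. SLC7A5P1 matches an SLC7A5 transcript over 537 bases at 96.6% identity, SLC7A5P2 over 536 bases at 96.3%, and the pseudogene SMG1P3 over 604 bases at 95.7%. SLC7A5P1 had 44 counts in the GGT7 library and 46 in the control library, SLC7A5P2 had 26 and 33, and SMG1P3 had 343 and 480. These counts are small beside those of SLC7A5, and none of the 3 showed a ratio like that of SLC7A5. The antisense gene AC126696.2 shares 271 exonic bases with SLC7A5 and had 4 counts in the GGT7 library and 2 in the control library. Within 250 kb of SLC7A5, 6 other genes were measured and none was 1.5-fold apart, beside 3.90% higher and 4.97% lower over all measured genes. The log2 differences of these 6 ran from -0.17 (BANP) to 0.43 (AC126696.3).

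SLC7A11 (ENSG00000151012, chromosome 4, 138164097 to 138242349, minus strand) was read with 4307 counts in the GGT7 library and 1822 in the control library. Its level was 42.4 FPKM in the GGT7 library and 13.7 FPKM in the control library, 3.10-fold higher (2.93 to 3.27). By log2 difference (1.56) it stood directly after SLC7A5 among the SLC genes and at rank 34 of all measured genes. The antisense gene SLC7A11-AS1 covers 8.97% of its exonic bases and was not analysed here, and since no source used here gives the strand setting of the counts, its reads cannot be told apart from those of SLC7A11. No other gene within 250 kb was measured.

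SLC7A6, the light chain that exchanges cationic for neutral amino acids, differed in the other direction. It had 967 counts in the GGT7 library and 1970 in the control library, or 4.83 FPKM and 7.51 FPKM, 1.55-fold lower (1.44 to 1.68). Its exons share 44.4% of their bases with SLC7A6OS on the opposite strand. SLC7A6OS had 188 counts in the GGT7 library and 361 in the control library, 1.47-fold lower (1.23 to 1.76), so the pair had like ratios, and without a known strand setting its reads and those of SLC7A6 are uncertain. Of 11 measured genes within 250 kb of SLC7A6, SLC7A6OS among them, none was 1.5-fold higher, beside 3.90% of all measured genes. By as much, 2 were lower, beside 4.97%, and the median log2 difference of the 11 was -0.16. In the same window, 1 of 5 measured genes near SLC1A4 (ACTR2, log2 difference 0.81) and 1 of 6 near SLC1A5 (AP2S1, 0.61) were 1.5-fold higher. Near SLC3A2 1 of 23 and near SLC43A1 1 of 12 was 1.5-fold lower. Near SLC7A1, SLC38A1 and SLC38A2 none was 1.5-fold apart.

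SLC3A2, the heavy chain that these light chains share, had 3054 counts in the GGT7 library and 2469 in the control library. Its deposited level was 20.2 FPKM in the GGT7 library and 12.5 FPKM in the control library, 1.62-fold higher (1.54 to 1.71). Its ratio was thus smaller than those of SLC7A5 and SLC7A11, and the counting intervals did not overlap.

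To set levels of different genes side by side, the length in the FPKM matters. The deposited FPKM of 87.4% of the 11714 genes that had 50 counts or more in both libraries corresponded, within 2%, to a length that sums every distinct annotated exon of the gene. Exons that overlap are then counted more than once, so the level of a gene with many alternative exons comes out lower. The length behind the deposited FPKM was 2.84 times the merged exonic length for SLC3A2, 2.56 times for SLC7A6 and 2.13 times for SLC38A2, but 1.09 times for SLC7A5 and 1.02 times for SLC7A11. The ratio of a gene between the libraries does not depend on this. Levels between genes are therefore compared below as merged-exon FPKM, computed from the counts and the merged exons of GENCODE 29.

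By merged-exon FPKM, SLC7A5 was the highest member in the GGT7 library at 360.3, and the third in the control library at 75.3. SLC38A2 was at 245.3 in the GGT7 library and 169.5 in the control library, and SLC38A1 was at 118.5 and 99.1. In the GGT7 library the order went on with SLC1A5 at 60.96, SLC3A2 at 57.3, SLC7A11 at 43.4, SLC7A1 at 34.7, SLC7A6 at 12.4, SLC1A4 at 7.51 and SLC43A1 at 4.73. In the control library it went on with SLC3A2 at 35.4, SLC1A5 at 34.99, SLC7A1 at 26.98, SLC7A6 at 19.3, SLC7A11 at 14.01, SLC1A4 at 4.85 and SLC43A1 at 2.04. The counting intervals of SLC1A5 and SLC3A2 overlapped in both libraries, and those of the other neighbours in the order did not. SLC7A11 thus stood above SLC7A1 and SLC7A6 in the GGT7 library and below both in the control library.

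**Figure D2:**
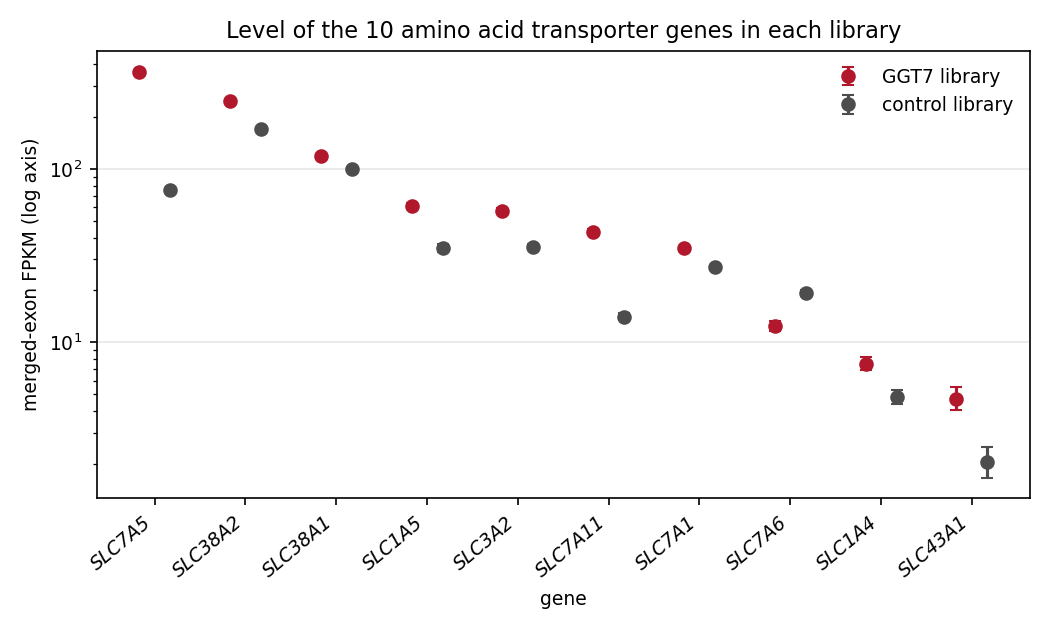
Merged-exon FPKM (log axis) of each member in the GGT7 library (red) and the control library (grey), ordered by the level in the GGT7 library; bars are exact Poisson 95% intervals of the counts. SLC7A5 is at 360.3 in the GGT7 library and 75.3 in the control library, and SLC7A6 is the gene with the grey point on top.

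The make-up of the light chains differed between the libraries. The summed merged-exon FPKM of the SLC3A2 light chains was 416.5 in the GGT7 library and 108.7 in the control library. SLC7A5 held 86.5% of that sum in the GGT7 library and 69.2% in the control library, SLC7A11 held 10.4% and 12.9%, and SLC7A6 held 2.97% and 17.7%. The ratio of SLC7A5 to SLC7A6 was 29.1 in the GGT7 library and 3.91 in the control library. The further light chains SLC7A7 and SLC7A8 had 6 and 17 counts in the GGT7 library and 4 and 10 in the control library, and SLC7A10 has no row in the table analysed. The light chain sum was 7.27 times the level of SLC3A2 in the GGT7 library and 3.07 times in the control library, so the ratio was 2.36-fold higher (2.23 to 2.51) in the GGT7 library. With the deposited FPKM the same quantities were 18.7 and 7.23, and the ratio of the ratios was 2.58 (2.43 to 2.74). These are RNA levels, and protein at the membrane was not measured here.

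**Figure D3:**
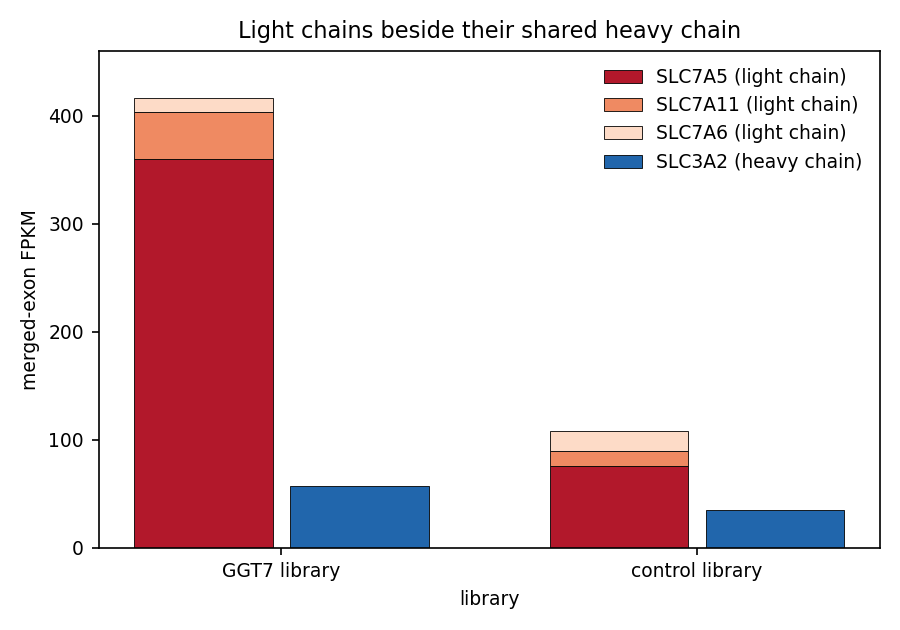
Merged-exon FPKM of the light chains SLC7A5, SLC7A11 and SLC7A6 (stacked) beside their shared heavy chain SLC3A2 (blue), in the GGT7 library (left pair) and the control library (right pair). The stack is near 416.5 in the GGT7 library and 108.7 in the control library, and SLC3A2 is at 57.3 and 35.4.

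Glutamine and small neutral amino acid carriers showed smaller differences than SLC7A5 and SLC7A11. SLC1A5, the glutamine carrier ASCT2, had 2090 counts in the GGT7 library and 1572 in the control library, or 36.5 FPKM and 20.95 FPKM, 1.74-fold higher (1.63 to 1.86). The antisense gene AC008622.2 shares 780 exonic bases with it and had 5 counts in the GGT7 library and 4 in the control library. SLC1A4 (ASCT1), its relative for serine, alanine and threonine, had 536 and 454 counts, or 4.86 FPKM in the GGT7 library and 3.14 FPKM in the control library, 1.55-fold higher (1.36 to 1.76). With the added 1 FPKM its log2 difference of 0.50 stayed under the 1.5-fold rule.

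SLC38A1 and SLC38A2, sodium-coupled carriers, lie 88171 bases apart on chromosome 12. SLC38A2, whose activity is known to rise in amino acid starvation, had 16662 counts in the GGT7 library and 15087 in the control library, or 115.1 FPKM and 79.5 FPKM, 1.45-fold higher (1.42 to 1.48). SLC38A1 had 12207 and 13386 counts, or 81.7 FPKM in the GGT7 library and 68.3 FPKM in the control library, 1.19-fold higher (1.17 to 1.22). Both belonged to the most abundant members, and neither was past 1.5-fold.

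SLC7A1 (CAT1), which takes up arginine and lysine without a heavy chain, had 2748 counts in the GGT7 library and 2798 in the control library. Its level was 32.2 FPKM in the GGT7 library and 24.99 FPKM in the control library, 1.29-fold higher (1.22 to 1.36). SLC43A1 (LAT3), which carries branched-chain amino acids without exchange, was the member with the lowest level. It had 172 counts in the GGT7 library and 97 in the control library, or 2.91 FPKM and 1.25 FPKM, 2.32-fold higher (1.80 to 3.01) as a ratio of FPKM, with a log2 difference of 0.80 on the scale with the added 1.

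As a pool, the 10 members took 0.586% of all counts in the GGT7 library (0.582% to 0.591%) and 0.3298% in the control library (0.327% to 0.333%). Without SLC7A5 the shares were 0.415% (0.412% to 0.419%) and 0.294% (0.291% to 0.297%). Their summed merged-exon FPKM was 945.1 in the GGT7 library and 481.4 in the control library, and SLC7A5 made up 61.5% of the difference. SLC7A5 was 38.1% of the sum in the GGT7 library and 15.6% in the control library.

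The other genes of amino acid transport differed less in most cases. A list of 45 further carriers of amino acids and small peptides had 27 genes in the table, of which 14 were measured by the same limit. Of these 14, 10 were above 0 and 4 below 0 by log2 difference, beside 45.2% above and 54.8% below over all measured genes. Past 1.5-fold, 2 of the 14 were higher, beside 3.90% of all measured genes, and none was lower, beside 4.97%. The median was 0.06. SLC1A1, the glutamate and aspartate carrier EAAT3 that also takes up cysteine, had 1019 counts in the GGT7 library and 789 in the control library, 1.69-fold higher (1.54 to 1.86). SLC38A7, a lysosomal glutamine carrier, had 322 and 196 counts, 2.15-fold higher (1.80 to 2.58).

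Among the more abundant genes of that list, the cationic carrier SLC7A2 was at 4.12 FPKM in the GGT7 library and 2.99 FPKM in the control library, a ratio of 1.38 (1.23 to 1.55). SLC38A5, a glutamine and serine carrier, was at 15.3 and 12.3 FPKM, a ratio of 1.25 (1.14 to 1.36). The lysosomal cationic carrier PQLC2 had a ratio of 1.27 (1.02 to 1.57). The taurine carrier SLC6A6 was at 18.5 FPKM in the GGT7 library and 18.3 FPKM in the control library, and SLC38A10 was at 16.97 and 16.2 FPKM; the intervals of both ratios included 1. The glycine carrier SLC6A9 was at 7.68 FPKM in the GGT7 library and 8.64 FPKM in the control library, and SLC36A4 was at 8.23 and 9.07 FPKM. Their ratios were 0.888 (0.798 to 0.989) and 0.908 (0.837 to 0.984).

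Among all 178 measured SLC genes, 10 were higher by 1.5-fold or more, beside 3.90% of all measured genes. By as much, 4 were lower, beside 4.97%. Of the 10 higher genes 5 were members, which were chosen with these differences known. The median of all SLC genes was -0.01. After SLC7A5 and SLC7A11, the members stood at ranks 5 (SLC43A1), 6 (SLC1A5), 10 (SLC3A2), 11 (SLC38A2), 15 (SLC1A4), 23 (SLC7A1), 30 (SLC38A1) and 174 (SLC7A6).

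**Figure D4:**
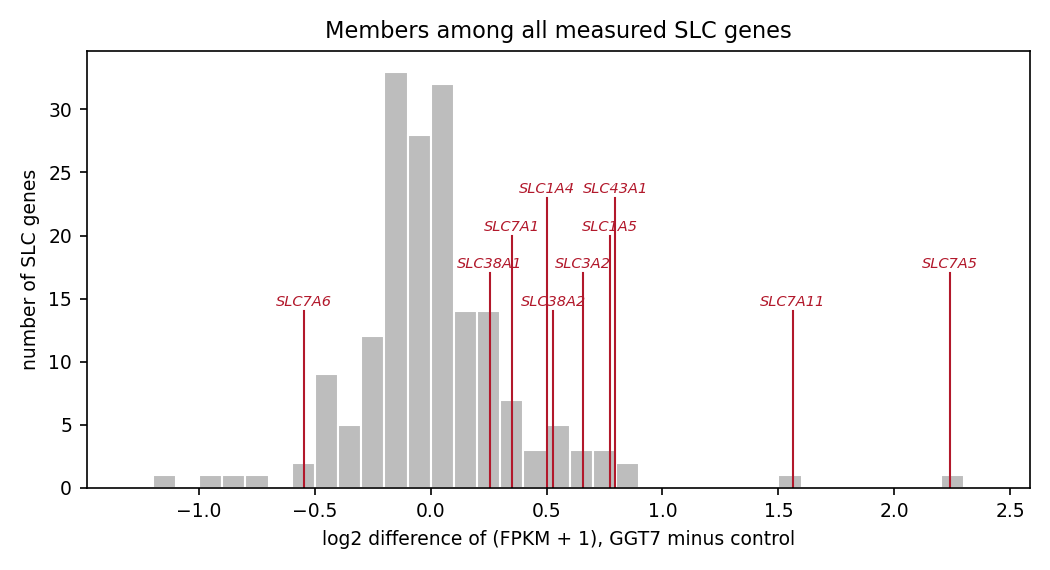
Histogram of the log2 difference of (FPKM + 1), GGT7 minus control, over the 178 measured SLC genes (grey bars, number of genes), with the 10 members marked by red lines whose heights only separate the labels. SLC7A5 at 2.24 and SLC7A11 at 1.56 lie apart from the other SLC genes, and SLC7A6 at -0.55 is the member left of 0.

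Genes for known regulators of these carriers went in both directions. Of 11 listed transcription factors and membrane protein regulators, 2 were higher by 1.5-fold or more and MYC was lower. ATF4 had 4068 counts in the GGT7 library and 3469 in the control library, 1.54-fold higher (1.47 to 1.61), and its partner CEBPG was 1.95-fold higher (1.74 to 2.19). MYC, whose product binds E-boxes, had 884 and 2951 counts, 2.55-fold lower (2.36 to 2.75). NFE2L2, which encodes NRF2, was at 7.17 FPKM in the GGT7 library and 7.24 FPKM in the control library. The part of these genes in the differences of the carriers was not tested.

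By likeness of the log2 difference over the 2 libraries, among genes reaching 5 FPKM in either, those nearest to SLC7A5 were GGT7 (2.25), ZNF33B (2.26) and XXbac-BPG32J3.22 (2.29). This likeness depends on the added 1, as their control levels were low. Their FPKM ratios were 6.84 (5.45 to 8.67), 12.8 (9.78 to 16.96) and 9.50 (6.69 to 13.9). All 3 intervals lay above that of SLC7A5, with a ratio of 4.79 (4.64 to 4.94). The nearest to SLC7A11 were PTTG1IP (1.56), RP11-612B6.2 (1.51) and GDF15 (1.504). Their FPKM ratios were 3.16 (2.91 to 3.43), 3.93 (1.19 to 16.7) and 2.99 (2.70 to 3.32), beside 3.10 (2.93 to 3.27) for SLC7A11. RP11-612B6.2 had only 12 counts in the GGT7 library and 4 in the control library.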

How the data were processed

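Total RNA of 2 AGS lines was sequenced, 1 library per group as labelled. According to the submitters' processing notes, the tools and build were HISAT2, StringTie 1.3.0, edgeR and GRCh38, with no roles. Annotation and strand setting are given by no source used here. Per the file headers, the authors deposited for each gene the counts and the FPKM of both libraries. The unit of the deposited counts was recorded loosely, under expected counts, since a single damaged line carries values that are not whole; without it all are whole, and nothing was rounded. This line and an empty row were dropped from the 23378 lines. Rows that share a symbol (31 symbols) were summed, and 23 symbols turned into dates were restored by gene ID.

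Folds are ratios of deposited FPKM, with exact conditional (Clopper-Pearson) 95% intervals of the count ratio. The interval was run on simulated Poisson counts, which follow its own assumption, so this checks the calculation only. PCR duplicates cannot be told from separate molecules here, so these intervals cover counting error only. The interval of the light to heavy chain ratio is a Poisson approximation. Genes with 1 FPKM or more in either library are called measured. Merged exons, positions and overlaps come from GENCODE 29 (23165 of 23376 IDs matched), copies from BLAST 2.17.0 (95% identity, 200 bases), and start windows from RefSeq. Members and lists were chosen with earlier results of these data known. The genes named are GGT7, all members, further carriers past 1.5-fold or among the 8 highest, listed or overlapping copies, and the 3 genes nearest to SLC7A5 and SLC7A11; CEBPG, ATF4, MYC, NFE2L2, SLC7A7, SLC7A8, the markers and the genes at the ends of neighbour ranges were named after their values were seen. Alternatives were 2 pseudocounts, 2 filters, 4 scalings (among them TMM of edgeR 4.0.16 and size factors of DESeq2 1.42.0), rows as deposited and, added after seeing the data, merged exon lengths. Calculations ran in Python 3.11.15 (scipy 1.17.1, pandas 2.3.3, numpy 2.4.6) and R 4.3.3, and plots were drawn with matplotlib 3.10.9.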

Additional observations from a re-analysis of the deposited data

How the results depend on the processing

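All 10 members kept the sign of their log2 difference under the 10 alternatives. SLC7A5 ran from 2.18 to 2.28, SLC7A11 from 1.34 to 1.62, SLC43A1 from 0.34 to 1.15 and SLC7A6 from -0.63 to -0.35. With a pseudocount of 5, 3 members were 1.5-fold or more higher, the median of all 10 members was 0.42, and 1 further carrier was 1.5-fold or more higher. That last count was also 1 at a limit of 5 FPKM in the higher library, which SLC38A7 does not reach. With merged exon lengths, an alternative chosen after seeing the data, the light chain to heavy chain ratio was 2.36. The fold of SLC3A2 is the same on both scales, while SLC7A6, which was lower in the GGT7 library, makes up 17.7% of the light chain sum of the control library with merged exons and 8.34% with the deposited FPKM. The other counts that were followed stayed within 1.5 times of their values. Among them, the count of members 2-fold or more higher was 2 in the main setting and 3 with a pseudocount of 0.1. At that pseudocount SLC43A1 stood at 1.15, so this count depends on the added 1. The count of members 1.5-fold or more lower was not followed. SLC7A6 passed that limit with a pseudocount of 0.1 (-0.63) and with merged exon lengths (-0.60), but not in the main setting (-0.55). The median of the further carriers, 0.06, ran from 0.04 (pseudocount of 5) to 0.09 (upper quartile), which moves it by over 1.5 times; with all their ratios at the lower or the upper counting bound it was -0.03 or 0.24. No scaling moved the median of all measured genes by over 0.1. No paired analysis was possible because each group holds 1 library. At this depth the interval of SLC43A1, with 97 counts in the control library, is the widest of the members.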
